A study of Mus musculus with 8 samples.

Results

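The collagen genes were taken as every gene whose symbol in the array annotation reads Col, digits, the letter a and digits, so that each is a chain of a named collagen type. Of the 18194 genes with a named probe set, 42 met this rule. By textbook class, 11 encode chains of fibrillar collagens, 6 encode chains of type IV, the collagen of basement membranes, and 25 belong to other classes. Gene expression was measured with Affymetrix whole-genome mouse arrays in 3T3-L1 adipocytes, an established mouse fibroblast line that had been differentiated into fat cells. Insulin resistance had been induced in 1 of 3 ways: by prolonged insulin (CI for chronic insulin, 2 arrays), by the cytokine tumour necrosis factor (TNF, 3 arrays) or by dexamethasone, a synthetic glucocorticoid (Dex, 3 arrays). All 8 samples had also received MnTBAP, an antioxidant, during the last 6 hours of treatment. Untreated cells and samples without MnTBAP were not analysed here. Each difference is therefore one between models of insulin resistance that all carried the antioxidant. The authors state that in their earlier work MnTBAP restored the insulin response in each model. The arrays do not measure that response. A fall against CI cannot be told apart from a rise under chronic insulin. The doses of the 3 treatments and their length are not given in the sources used here, and separate cultures are not named for the arrays of a model. The spread behind each p-value is therefore that between samples and may be technical.

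Collagens are secreted proteins built from chains that wind into a triple helix. Fibrillar collagens of types I, III and V assemble into the fibres of connective tissue, whereas type IV forms the sheet-like network of the basement membrane that surrounds each adipocyte, and type VI forms beaded filaments between them. Preadipocytes are fibroblast-like and make much fibrillar collagen, and during differentiation adipocytes shift towards basement membrane and type VI collagen. Glucocorticoids are known as repressors of type I collagen in fibroblasts and skin.

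The labels name adipocytes in one field and preadipocytes in another, so markers were examined first. Adipoq and Fabp4, which encode adiponectin and the adipocyte fatty acid binding protein, lay between 14.31 and 14.45 on the log2 intensity scale in every array, and all 9 measured adipocyte markers of 10 listed lay above the median gene. Their summed intensity was 121253 to 122137 in CI, 96800 to 99538 in TNF and 114572 to 119732 in Dex. By the calls defined in the next paragraph, 5 of the 9 were lower in TNF than in CI (Cidec, Slc2a4, Pparg, Cebpa and Retn). In Dex against CI 2 of the 9 were called lower, and none was called higher in either comparison. Over all genes 8.22% and 9% were called in these comparisons. Preadipocyte and fibroblast markers were present too, with 7 of 9 measured markers above the median gene, among them Dlk1, an inhibitor of fat cell differentiation, at 12.91 and 12.90 in CI. The summed intensity of the preadipocyte and fibroblast markers was 27930 to 30464 in Dex, against 33721 to 34843 in CI and 36315 to 39506 in TNF. That of the 5 myofibroblast markers was 2249 to 2893 in Dex, 2997 to 3660 in CI and 5591 to 7006 in TNF, although only Acta2 lay above the median gene. Both sums were lowest in Dex, as were the chains of types I and III below, and their part in those differences was not tested. The sums do not stand for every member. In Dex against CI 3 of the 9 preadipocyte and fibroblast markers and 1 of the 5 myofibroblast markers were called lower, and none higher. Dlk1 averaged 12.91 in CI and 12.20 in Dex, whereas the brightest of these markers, Vim, averaged 13.72 and 13.77. In bulk RNA, fewer cells of a type and less RNA per cell cannot be told apart. Of the 7 macrophage markers 3 lay above the median gene, with sums of 2328 to 2341 in CI, 3510 to 3735 in TNF and 2289 to 2368 in Dex, and of the 5 endothelial markers 1 did, with sums of 471 to 561 over all arrays. Only 2 of the 7 macrophage markers were called in TNF against CI, Lyz2 (0.55 ± 0.07, SE) and Cd14 (1.44 ± 0.13), both higher. The other 5 (Adgre1, Cd68, Csf1r, Itgam and Ptprc) were not called.

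Levels and differences are on the log2 scale, and each gene is represented by its single-symbol probe set with the highest mean. A gene was called, and is described as rising or falling, where limma's moderated test gave an adjusted p under 0.05 (Benjamini-Hochberg over all 18194 genes) and the difference exceeded 0.5. Each difference carries its standard error (SE). Of the 42 collagens, 20 lay at or above the median gene (7.92) and 22 below it. The files give no detection call, which leaves the size of a difference uncertain for the latter. In all, 12 collagens changed in at least 1 of the 3 comparisons and 30 in none. Of those 12, 10 lay at or above the median gene. The arrays of 2 models did not overlap for 24 collagens in TNF against CI, 23 in Dex against CI and 18 in TNF against Dex, where 53%, 48% and 35.9% of all genes did not, so that absence of overlap was common with so few arrays.

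The comparison of Dex with CI held the largest differences, and asked how collagen expression in the glucocorticoid model differed from that in the chronic insulin model. Of the 42 collagens, 10 fell and none rose (10 of 42 is 23.8%), against 9% of all genes called in either direction, 3.33% called higher and 5.67% called lower. At an unadjusted p under 0.05, 16 were lower and 3 higher in Dex. Fibrillar chains made up 6 of the 10, out of 11 measured, with a median difference of -0.50 beside 0.02 over all genes. The basement membrane chains had no call in this comparison (0 of 6 by limma, 1 at an unadjusted p under 0.05, median 0.03), and 4 of 25 others fell (median 0.02). The difference between the classes was not tested. Of the 20 collagens at or above the median gene 9 fell, and of the 22 below it 1 fell. Class and level were not separated. With the probe set of largest variance for each gene the fibrillar median was -0.29.

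**Figure D1:**
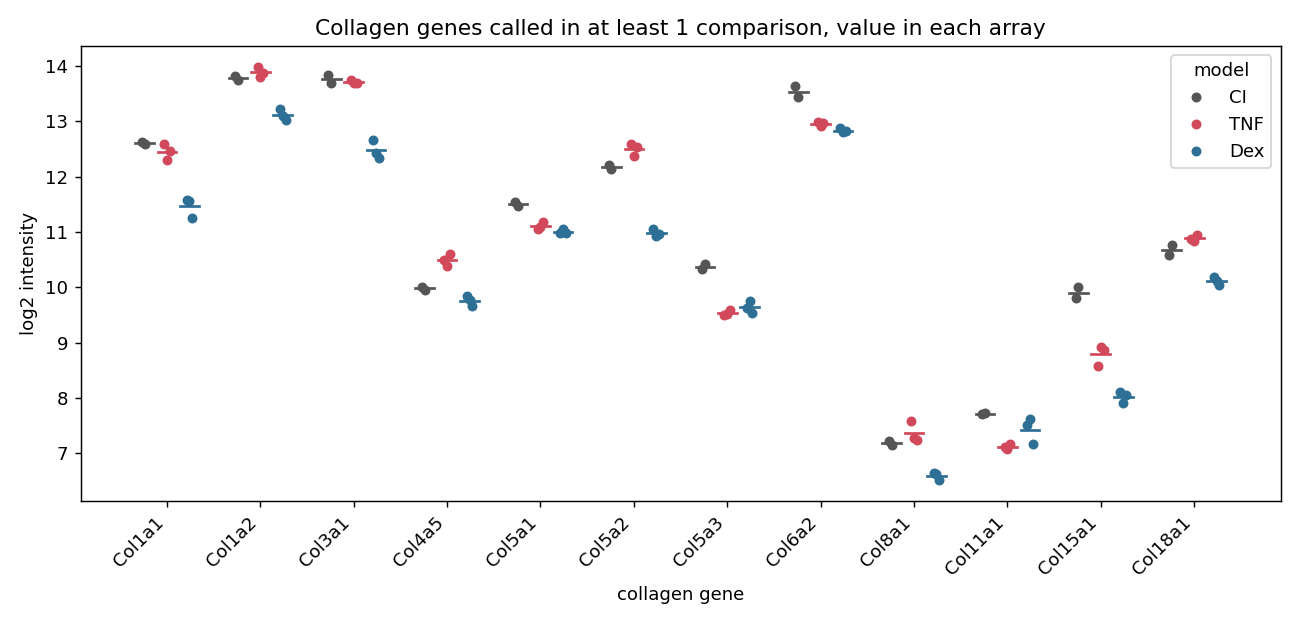
Log2 intensity (vertical axis) of the 12 collagen genes called in at least 1 comparison (horizontal axis). Each point is 1 array, coloured by model (CI, 2 arrays; TNF and Dex, 3 arrays each), and a bar marks each model's mean. The Dex points of Col1a1, Col1a2, Col3a1, Col4a5, Col5a2, Col6a2, Col8a1, Col15a1 and Col18a1 lie below all points of the other models. The TNF points of Col4a5, Col5a2, Col8a1 and Col18a1 lie above all points of the other models, for Col8a1 by a narrow margin.

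Type III collagen, which forms fine fibres together with type I, fell most among the fibrillar chains. Col3a1 lay at 13.84 and 13.69 in CI, at 13.75, 13.69 and 13.70 in TNF, and at 12.67, 12.42 and 12.35 in Dex. The Dex arrays thus lay below all others while CI and TNF overlapped. The fall against CI was 1.29 ± 0.10 (SE), or 2.45-fold (limma adjusted p = 3.69e-06). Type I collagen, the main collagen of connective tissue, is built from the products of Col1a1 and Col1a2. Col1a1 lay at 12.62 and 12.59 in CI, at 12.60, 12.31 and 12.46 in TNF, and at 11.58, 11.57 and 11.25 in Dex, a fall of 1.14 ± 0.11 from CI to Dex (adjusted p = 2.94e-05). Col1a2 lay at 13.81 and 13.74 in CI, at 13.99, 13.80 and 13.88 in TNF, and at 13.22, 13.10 and 13.03 in Dex, and fell by 0.66 ± 0.09 (adjusted p = 2.08e-04). Both chains of type I were therefore lower in Dex in every array.

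Type V collagen co-assembles with type I and limits the width of its fibres, and its chains did not behave alike. Col5a2 lay at 12.22 and 12.14 in CI and at 11.06, 10.93 and 10.96 in Dex, whereas the TNF arrays were the highest at 12.59, 12.38 and 12.53. It fell by 1.19 ± 0.08 in Dex against CI (adjusted p = 2.26e-06). Col5a3 lay at 10.32 and 10.43 in CI, at 9.50, 9.52 and 9.59 in TNF, and at 9.62, 9.75 and 9.54 in Dex. It was thus highest in CI, with TNF and Dex overlapping, and fell by 0.74 ± 0.08 in Dex (adjusted p = 6.35e-05). With the mean of its 2 probe sets the difference was -0.44 and was not called. Col5a1 lay at 11.54 and 11.48 in CI, at 11.05, 11.08 and 11.19 in TNF, and at 10.99, 11.06 and 10.98 in Dex. Its fall in Dex was 0.50 ± 0.07 (adjusted p = 5.54e-04), at the threshold. The call was lost without CI replicate 1, Dex replicate 1 or Dex replicate 3 (-0.53 to -0.47 with 1 array left out), with quantile normalization, with an offset of 32, with the mean of all probe sets, with the probe set of largest variance, or with the beta-actin 3′ minus 5′ difference, a measure of RNA quality, as a covariate. The other 5 fibrillar genes (Col2a1, Col11a1, Col11a2, Col24a1 and Col27a1) did not pass in Dex against CI. These include chains of cartilage collagens, and all but Col27a1 lay below the median gene.

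The promoters of genes that fell in Dex are shown so that their sequence can be set beside the values, with that of a basement membrane gene whose level did not pass any test. The windows are from RefSeq (GRCm38.p6), run from 250 bases before to 50 bases after the annotated start, and are written 5′ to 3′ on the strand of the gene. Capitals mark matches on either strand to 3 of the 7 motifs searched, given next, and matches to the GC box are left in lower case. The motif TATAAA is a form of the TATA box. The CCAAT box is bound by general activators. The motif CAGACA is an element of the type bound by Smad proteins.
Col3a1 (chr1:45311288-45311587, plus strand): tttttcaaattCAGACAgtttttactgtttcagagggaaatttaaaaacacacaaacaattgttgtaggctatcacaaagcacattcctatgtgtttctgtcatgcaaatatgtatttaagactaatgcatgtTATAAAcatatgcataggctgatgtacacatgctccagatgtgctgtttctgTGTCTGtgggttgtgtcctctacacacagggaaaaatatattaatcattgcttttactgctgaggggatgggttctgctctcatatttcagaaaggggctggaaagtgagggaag
Col1a2 (chr6:4505368-4505667, plus strand): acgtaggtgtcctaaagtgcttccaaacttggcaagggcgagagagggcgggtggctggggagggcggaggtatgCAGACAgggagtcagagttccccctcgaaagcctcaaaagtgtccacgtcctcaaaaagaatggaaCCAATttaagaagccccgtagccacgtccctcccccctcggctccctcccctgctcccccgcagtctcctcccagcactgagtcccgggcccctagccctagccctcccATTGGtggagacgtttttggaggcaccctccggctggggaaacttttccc
Col15a1 (chr4:47207762-47208061, plus strand): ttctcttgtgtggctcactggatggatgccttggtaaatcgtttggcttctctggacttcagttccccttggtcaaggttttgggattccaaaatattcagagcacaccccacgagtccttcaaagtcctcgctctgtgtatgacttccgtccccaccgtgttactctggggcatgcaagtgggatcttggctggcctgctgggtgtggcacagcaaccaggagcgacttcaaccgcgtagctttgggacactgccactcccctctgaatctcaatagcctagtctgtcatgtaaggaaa
Col4a2 (chr8:11312555-11312854, plus strand): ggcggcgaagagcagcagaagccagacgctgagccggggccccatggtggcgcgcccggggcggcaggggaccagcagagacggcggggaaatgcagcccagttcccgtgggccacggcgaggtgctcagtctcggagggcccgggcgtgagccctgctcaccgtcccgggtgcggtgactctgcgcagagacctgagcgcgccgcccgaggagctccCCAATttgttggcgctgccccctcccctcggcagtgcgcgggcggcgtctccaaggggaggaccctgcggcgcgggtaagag
A window was given for 33 of the 42 collagens (36 windows). Those of Col1a1 and Col5a2 were not used here. Of 7 motifs searched on both strands, CAGACA was held by 5 of the 8 genes lower in Dex with a window and by 21% of all 32851 windows. A gene was counted if any of its windows held the motif, whereas the shares over all are per window. TATAAA was in 1 of the 8 and in 13.6% of all windows, CCAAT in 3 of 8 and 37.4%, and the GC box GGGCGG in 6 of 8 and 35.7%. AGAACA, one arm of a glucocorticoid receptor site, was in none of the 8 and in 19% of all windows, TGANTCA, an AP-1 type site, in none and 7.81%, and GGGA followed by any 2 bases and TTCC, a kappa B type site, in none and 1.47%. Among all 33 collagens with a window, the GC box was in 21, CCAAT in 13, CAGACA in 8 and TATAAA in 5. AGAACA was in 2 of the 33, TGANTCA in 1 and the kappa B type site in none. The median GC content was 59.8% over collagen windows and 52.7% over all windows. These matches describe letters in a short window and not sites in use. As searched, the motifs do not contain each other.

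Outside the fibrillar class, the largest difference was that of Col15a1. Its product and that of Col18a1 are the multiplexins, collagens with attached sugar chains that sit at the outer face of basement membranes, and each releases an anti-angiogenic fragment from its end (endostatin in the case of Col18a1). Col15a1 lay at 9.80 and 10.004 in CI, at 8.58, 8.91 and 8.87 in TNF, and at 8.10, 7.91 and 8.06 in Dex, so that the 3 models did not overlap. It fell by 1.88 ± 0.11 in Dex, or 3.68-fold (adjusted p = 6.03e-07). Col18a1 lay at 10.59 and 10.76 in CI, at 10.88, 10.84 and 10.94 in TNF, and at 10.19, 10.12 and 10.05 in Dex, and fell by 0.56 ± 0.08 (adjusted p = 4.45e-04). This call was lost without CI replicate 2, where the difference was -0.48. Col8a1, a short-chain collagen of vessel walls and the cornea, lay at 7.23 and 7.15 in CI, at 7.59, 7.28 and 7.24 in TNF, and at 6.65, 6.63 and 6.52 in Dex. It fell by 0.59 ± 0.10 (adjusted p = 0.00186), at levels below the median gene, and was not called with 32 added to the intensities before the logarithm.

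Type VI collagen, which in fat tissue surrounds adipocytes and is assembled from the products of Col6a1, Col6a2 and Col6a3, also had chains with unlike values. Col6a2 lay at 13.64 and 13.44 in CI, at 13.00, 12.91 and 12.97 in TNF, and at 12.87, 12.81 and 12.82 in Dex, and fell by 0.71 ± 0.08 in Dex (adjusted p = 6.98e-05). Col6a1, its neighbour on chromosome 10 with no protein-coding gene between them, lay at 13.61 and 13.55 in CI, at 13.48, 13.44 and 13.51 in TNF, and at 13.42, 13.45 and 13.27 in Dex, and did not pass in any comparison (-0.20 ± 0.08 for Dex against CI). Col6a3, whose product releases the adipokine endotrophin from its end, lay at 13.17 and 13.01 in CI, at 12.91, 12.94 and 13.03 in TNF, and at 13.49, 13.39 and 13.28 in Dex. Its Dex arrays were thus the highest. The difference of 0.30 ± 0.09 against CI had an adjusted p of 0.0299 but was under the limit of 0.5. Whether the chains differed from each other in their response was not tested.

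The basement membrane genes Col4a1 and Col4a2 encode the common chains of type IV collagen and stand head to head on chromosome 8, so that their promoter windows share 78 bases. Col4a1 lay at 13.17 and 13.13 in CI, at 13.14, 12.99 and 13.10 in TNF, and at 13.26, 13.24 and 13.16 in Dex. Col4a2 lay at 12.75 and 12.69 in CI, at 12.67, 12.52 and 12.63 in TNF, and at 12.82, 12.82 and 12.67 in Dex. For Dex against CI the differences were 0.07 ± 0.08 and 0.05 ± 0.08, and neither gene passed in any comparison. A p that misses the threshold does not show that the levels were equal. Neighbours on the genome also occurred among the genes that fell, since Col3a1 and Col5a2 lie next to each other on chromosome 1 with no protein-coding gene between them.

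**Figure D2:**
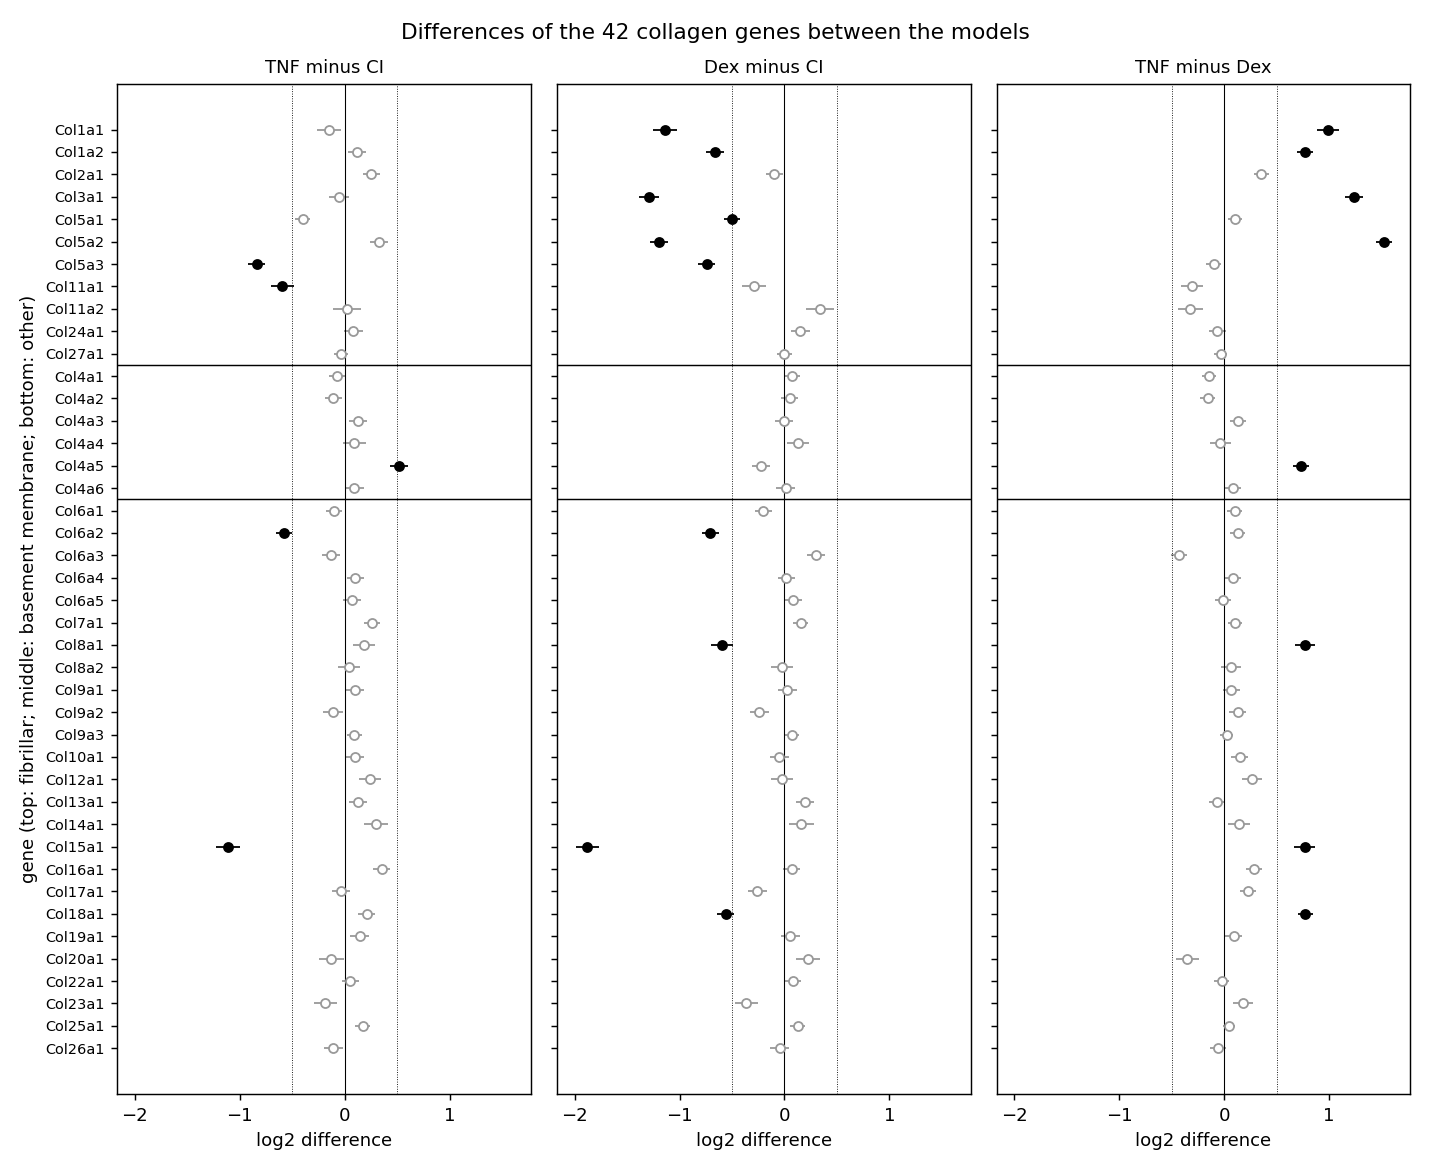
Log2 difference (horizontal axes, shared scale) of each of the 42 collagen genes (vertical axis) in panels for TNF minus CI, for Dex minus CI and for TNF minus Dex, with bars of 1 SE. Filled points were called and open points were not, dotted lines mark a difference of 0.5 in either direction, and horizontal lines separate fibrillar, basement membrane and other collagens. The called points of Dex minus CI all lie left of 0, from -1.88 to -0.50, and those of TNF minus Dex all lie right of it, from 0.73 to 1.52.

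For the genes with more than 1 probe set, the other probe sets were examined as well, in a fit with all 45037 probe sets as features. Of the 10 collagens lower in Dex than in CI, 9 had several, and in 5 of these every probe set was called lower (Col1a1, Col3a1, Col5a2, Col6a2 and Col18a1). The second probe set of Col3a1 fell from 10.63 and 10.59 in CI to 8.40, 8.33 and 7.97 in Dex, a difference of -2.37 against -1.29 for the brighter one. The second probe set gave -1.54 against -1.14 for Col1a1 and -1.64 against -1.19 for Col5a2, and for Col1a2 the next brightest gave -1.33 against -0.66. In these 4 genes the brighter probe set thus showed the smaller difference. The size of the fall in these fibrillar genes accordingly depended on the probe set, but its direction did not for these pairs. The last probe set of Col1a2, at 4.66 to 5.54 in all arrays, differed by 0.14 and was not called. For Col5a1 1 of 3 probe sets was called, for Col5a3 1 of 2, and for Col8a1 2 of 3. In the fibrillar genes Col5a1 and Col5a3 the brightest probe set showed the larger fall instead. It gave -0.50 against -0.42 and -0.24 for Col5a1, and -0.74 against -0.14 for Col5a3. Col15a1 had 1 probe set.

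**Figure D3:**
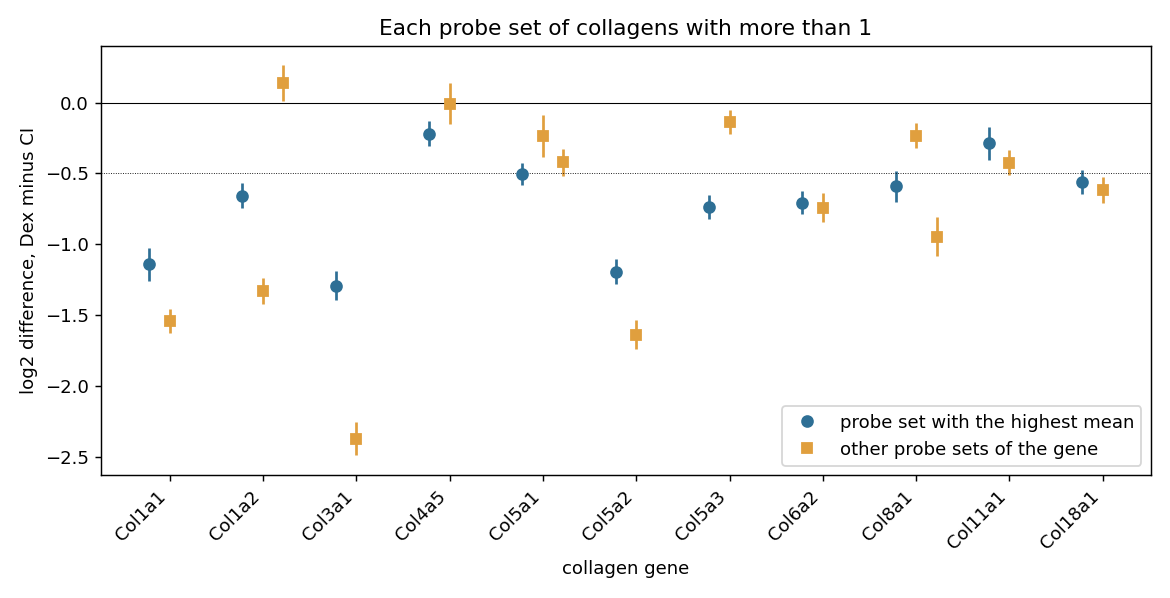
Log2 difference of Dex minus CI (vertical axis) for each probe set of the called collagens that have more than 1 (horizontal axis), with bars of 1 SE. Circles mark the probe set with the highest mean and squares the others, and the dotted line marks -0.5. For Col1a1, Col1a2, Col3a1 and Col5a2 at least 1 square lies below the circle, down to -2.37 for Col3a1.

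The comparison of TNF with CI asked the same of the inflammatory model and held fewer changes. Of the 42 collagens 4 fell and 1 rose (11.9%), against 8.22% of all genes called, so that the share was close to that background. Over all genes 3% were called higher and 5.23% lower in TNF (545 and 951 genes, or 634 and 724 after quantile normalization). In this comparison 2 of 11 fibrillar chains fell (median -0.04), 1 of 6 basement membrane chains rose (median 0.09), and 2 of 25 others fell (median 0.09), beside a median of 0.03 over all genes. Col15a1 fell by 1.11 ± 0.11 (2.16-fold, adjusted p = 5.57e-05), Col5a3 by 0.84 ± 0.08 (adjusted p = 4.55e-05) and Col6a2 by 0.58 ± 0.08 (adjusted p = 4.30e-04). Col5a3 was not called with the mean of its 2 probe sets (-0.41), the dimmer of which differed by 0.02. The call of Col6a2 was lost without CI replicate 1, where the difference was -0.48. Col11a1, a minor fibrillar chain best known from cartilage, lay at 7.71 and 7.72 in CI, at 7.12, 7.07 and 7.17 in TNF, and at 7.51, 7.62 and 7.17 in Dex, below the median gene. It fell by 0.59 ± 0.11 in TNF (adjusted p = 0.00346), and both of its probe sets were called, although the gene was not called with an offset of 32 or with the beta-actin covariate. The beta-actin difference ranged from 0.54 to 0.66 over the CI arrays, from 0.71 to 0.83 over TNF and from 0.49 to 0.75 over Dex.

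Type I and type III collagen did not pass in TNF against CI. The difference was 0.11 ± 0.09 for Col1a2, -0.15 ± 0.11 for Col1a1 and -0.05 ± 0.10 for Col3a1. Among their other probe sets, the dimmest of Col1a2 was called higher in TNF (0.56, limma adjusted p = 0.0118), and the dimmer ones of Col1a1 and Col3a1 both differed by -0.40 (adjusted p = 0.00815 and 0.0391), under the limit of 0.5. Col5a2 (0.33 ± 0.08, adjusted p = 0.0173) and Col5a1 (-0.40 ± 0.07, adjusted p = 0.00285) had adjusted p-values under 0.05 but differences under the limit of 0.5, in opposite directions. The other probe set of Col5a2 differed by -0.20, so the direction of Col5a2 in TNF rests on 1 probe set. The only rise was that of Col4a5, which encodes a chain of the type IV network of specialised basement membranes. It lay at 10.02 and 9.95 in CI, at 10.50, 10.38 and 10.60 in TNF, and at 9.84, 9.78 and 9.67 in Dex, so that the TNF arrays lay above all others. The rise of 0.51 ± 0.09 (adjusted p = 0.00150) was at the threshold. It was not called without CI replicate 2 or TNF replicate 3 (0.46 at the lowest), nor with each array centred on its median, an offset of 32 or the mean of all probe sets. Its second probe set differed by 0.32 and was not called. Col4a6, which lies next to Col4a5 on the X chromosome, did not pass.

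TNF and Dex were then compared directly, which also tests whether the differences from CI were unlike in the 2 models. Of the 42 collagens 8 were higher in TNF and none lower (19%), against 7.3% of all genes called, 4.14% called higher in TNF and 3.16% called lower. At an unadjusted p under 0.05, 12 were higher and 5 lower in TNF. The fibrillar genes were Col5a2 (1.52 ± 0.08, or 2.87-fold, adjusted p = 1.29e-07), Col3a1 (1.24 ± 0.09, adjusted p = 2.23e-06), Col1a1 (0.99 ± 0.10, adjusted p = 3.80e-05) and Col1a2 (0.77 ± 0.08, adjusted p = 2.82e-05). The others were Col18a1 (0.77 ± 0.07), Col8a1 (0.77 ± 0.09), Col15a1 (0.77 ± 0.10) and Col4a5 (0.73 ± 0.08). All 8 calls were kept with any 1 array left out. Of the genes lower than CI in both models, Col15a1 alone differed between TNF and Dex, while Col5a3 (-0.10 ± 0.07) and Col6a2 (0.13 ± 0.07) did not pass. Comparisons that share a group share its arrays, so their counts are not independent.

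The 30 collagens without a call had differences between -0.43 and 0.35 in the 3 comparisons, and 20 of them lay below the median gene. They comprised 4 fibrillar, 5 basement membrane and 21 other chains. Among them 6 reached an adjusted p under 0.05 in some comparison with a difference under 0.5. Col6a3 was lower in TNF than in Dex by 0.43 ± 0.08 (adjusted p = 0.00217) and Col16a1, a fibril-associated collagen, was higher in TNF than in CI by 0.35 ± 0.08 (adjusted p = 0.0107). The others were Col2a1, Col7a1, Col20a1 and Col23a1. None of the 9 fibril-associated collagens, which decorate the surface of fibres, was called by limma with its brightest probe set, and of these 3 had an unadjusted p under 0.05 in TNF against CI, 1 in Dex against CI and 3 in TNF against Dex. Dimmer probe sets of 3 of the 30 genes were called. One of Col12a1 was higher in TNF than in Dex by 0.70, one of Col20a1 rose by 0.51 in Dex against CI and was lower in TNF than in Dex (-0.59), and one of Col23a1 was lower in Dex than in CI (-0.74).

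Collagen is hydroxylated and folded in the endoplasmic reticulum, trimmed outside the cell, cross-linked by lysyl oxidases and bound by small proteoglycans, and is broken down by metalloproteinases. Of 93 listed genes of these steps, of collagen receptors and of upstream signals, 86 had a named probe set. In Dex against CI 8 rose and 19 fell, in TNF against CI 26 rose and 7 fell, and in TNF against Dex 25 were higher in TNF and 2 lower. Those are 27, 33 and 27 of 86 genes, beside 9%, 8.22% and 7.3% of all genes called in the same comparisons, and the lists below are to be read against these shares. The corresponding counts for the collagens were 0 and 10, 1 and 4, and 8 and 0. Pdgfrb and Postn stand in these lists and among the preadipocyte and fibroblast markers.

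**Figure D4:**
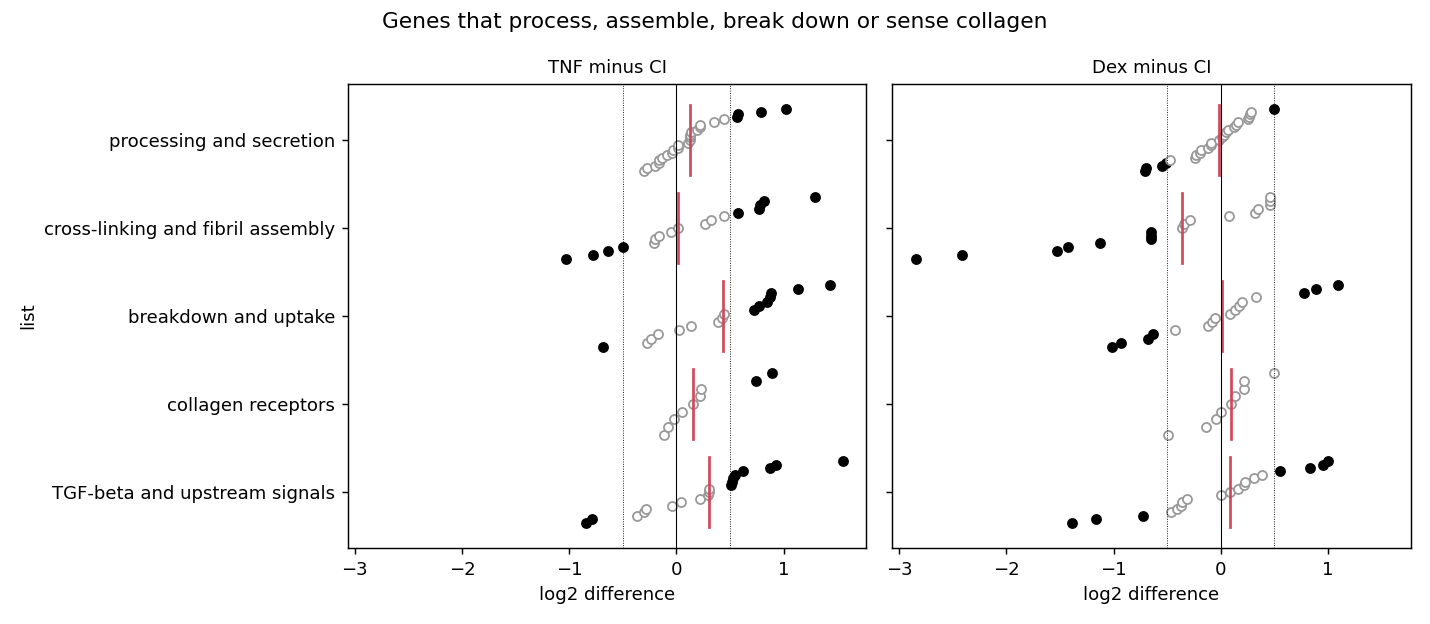
Log2 difference (horizontal axes, shared scale) of the measured genes of 5 lists of collagen-handling genes (vertical axis) for TNF minus CI and Dex minus CI. Each point is 1 gene, filled if called, a vertical line marks the median of the list, and dotted lines mark a difference of 0.5 in either direction. In Dex minus CI the filled points of the cross-linking and fibril assembly list all lie left of 0, down to -2.84.

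Genes that assemble fibres showed the largest differences in Dex. Of 17 measured, 8 fell and none rose in Dex against CI (median -0.36), 5 rose and 4 fell in TNF against CI (median 0.01), and 8 were higher in TNF than in Dex (median 0.49). At an unadjusted p under 0.05 by limma, 11 were lower and 5 higher in Dex than in CI. These 5 were Lox, Loxl1, Loxl4, Thbs2 and Bgn. Each had an adjusted p under 0.05 but a difference, 0.32 to 0.46, under the limit of 0.5. Lum, which encodes the fibril-spacing proteoglycan lumican, lay at 10.55 and 10.21 in CI, at 9.46, 9.70 and 9.64 in TNF, and at 7.68, 7.42 and 7.49 in Dex, without overlap between the models. It fell by 2.84 ± 0.12 in Dex. Dpt, which encodes dermatopontin, fell by 2.41 ± 0.09 in Dex and by 1.02 ± 0.09 in TNF, the transglutaminase Tgm2 by 1.53 ± 0.09 in Dex and by 0.64 ± 0.09 in TNF, and the proteoglycan decorin, Dcn, by 1.42 ± 0.12. In TNF against CI the matrix glycoprotein fibronectin, Fn1, rose by 1.30 ± 0.10, Thbs2 by 0.82 ± 0.09 and the lysyl oxidase Lox by 0.78 ± 0.09. Lox was also above CI in Dex, by 0.46 ± 0.09, a value under the limit. It lay at 11.38 and 11.25 in CI, at 12.16, 11.99 and 12.13 in TNF, and at 11.76, 11.87 and 11.67 in Dex.

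Of 25 measured processing genes 1 rose and 4 fell in Dex against CI (median -0.01; 9% of all genes called), and 4 rose and none fell in TNF against CI (median 0.12; 8.22% of all genes called). P4ha1, a catalytic subunit of the prolyl hydroxylase that stabilises the helix, fell by 0.71 ± 0.12 in Dex and was 0.90 ± 0.11 higher in TNF than in Dex. Pcolce2, which enhances procollagen trimming, fell by 0.70 ± 0.11 in Dex at levels below the median gene. The collagen chaperone Serpinh1 fell by 0.55 ± 0.09 and the hydroxylase P3h1 by 0.51 ± 0.07. Neither was called without Dex replicate 3 (-0.48 for each), and P3h1 also not without CI replicate 2 (-0.47) or after quantile normalization. P4ha2, another prolyl hydroxylase subunit, rose by 1.02 ± 0.13 in TNF, P3h3 by 0.79 ± 0.11 and Pcolce by 0.58 ± 0.07, the last not called without CI replicate 2 (0.499). Plod2, a lysyl hydroxylase, was 0.57 ± 0.17 higher in TNF than in CI. This call was lost without either CI array, TNF replicate 2 or TNF replicate 3, with each array centred on its median, with the replicate number as a block (0.44), and with the beta-actin covariate (0.33).

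Among 16 measured genes of collagen breakdown and its inhibition, 7 rose and 1 fell in TNF against CI (median 0.44), and 3 rose and 4 fell in Dex against CI (median 0.02). The protease inhibitor Timp1 rose by 1.43 ± 0.09 in TNF and was 2.06 ± 0.08 higher there than in Dex. Its TNF arrays lay at 10.55, 10.38 and 10.32, the CI arrays at 8.92 and 9.04, and the Dex arrays at 8.40, 8.23 and 8.43. The gelatinase Mmp9 rose by 1.13 ± 0.10 in TNF, the gelatinase Mmp2 by 0.88 ± 0.08 and the membrane-bound collagenase Mmp14 by 0.88 ± 0.08. Mmp2 rose in Dex too, by 0.78 ± 0.08, and the inhibitor Timp2 rose by 0.89 ± 0.09 in Dex and by 0.85 ± 0.09 in TNF. Timp4 rose by 1.10 ± 0.12 in Dex, whereas Timp3 fell by 0.93 ± 0.11. The collagenase Mmp13 fell by 1.02 ± 0.19 in Dex and rose by 0.77 ± 0.19 in TNF, the latter not called without either CI array (0.77 in each fit), but at 3.45 to 5.84 it lay far below the median gene in all arrays.

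Of 9 measured receptors 2 rose in TNF against CI (median 0.16) and 1 was higher in TNF than in Dex (median 0.06), beside 8.22% and 7.3% of all genes. In Dex against CI none of the 9 was called by limma (3 at an unadjusted p under 0.05). The collagen-binding receptor kinases Ddr2 and Ddr1 rose by 0.89 ± 0.11 and 0.74 ± 0.12 in TNF, and Ddr2 was 0.67 ± 0.10 higher in TNF than in Dex. Of 19 upstream signals 8 rose and 2 fell in TNF against CI (median 0.30), and 4 rose and 3 fell in Dex against CI (median 0.08). Ltbp2, which encodes a matrix protein related to the binding proteins of latent TGF-beta, rose by 1.55 ± 0.09 in TNF, the growth factor receptor Pdgfrb by 0.93 ± 0.14 and Tgfb1, a main inducer of collagen genes, by 0.87 ± 0.09. Tgfb2 fell by 0.85 ± 0.09 in TNF and by 1.17 ± 0.09 in Dex. In Dex the TGF-beta inhibitors Skil and Smad7 rose by 0.998 ± 0.13 and 0.96 ± 0.15, and Fgf2 fell by 1.39 ± 0.19. In TNF against CI they were called in the same direction, Skil at 0.53 ± 0.13, Smad7 at 0.55 ± 0.15 and Fgf2 at -0.79 ± 0.19. None of these 3 calls in TNF was kept without CI replicate 1 (0.47, 0.38 and -0.70). Skil was also not called without CI replicate 2 (0.58), and neither Skil (0.39) nor Smad7 (0.47) without TNF replicate 1. Tgfb1 was 0.55 ± 0.09 higher in Dex than in CI, a call lost without CI replicate 1 (0.45) or Dex replicate 2 (0.49).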

How the data were processed

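Total RNA of 8 samples was hybridised as biotin-labelled cRNA to Affymetrix mouse arrays (45101 probe sets). For each probe set the authors deposited a linear intensity. Their methods name RMA (affyPLM) for arrays of this type, and no source says whether these values are RMA values taken out of the logarithm. Their median per array was 124.7 to 130.97, and log2 was taken with no offset. Precision is limited by the number of arrays.

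Gene symbols came from the platform annotation at GEO (34958 with 1 symbol, 932 with several, 9211 with none). The 42 collagens had 82 single-symbol probe sets, and 27 of them had more than 1. All 18194 genes of the 8 arrays were fitted together with limma 3.58.1 (R 4.3.3) using lmFit and eBayes, two-sided, as in the study's methods. The step was tested on simulated data. The members, gene lists and alternatives were chosen with earlier results of these data known. The genes named were every called collagen, 12 collagens whatever their values, up to 4 called members per list and contrast with the largest difference, and Serpinh1, P4ha1, Plod2, Lox and Ddr2. Other genes were named after their values were seen. Alternatives changed scaling, offset, filter, probe set, block, samples, eBayes settings, weights, covariate or threshold, or left out 1 array. Motifs were searched and figures drawn in Python 3.11.15.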

Additional observations from a re-analysis of the deposited data

How the results depend on the processing

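The number of collagens called stayed within 1.5 times of the main value in most alternatives. The exceptions were as follows. In TNF against CI 5 were called, and 3 with an offset of 32 before log2, 3 with the mean of all probe sets of a gene, 10 with no limit on the difference and 1 with a limit of 1 on the log2 scale. In Dex against CI (10) and TNF against Dex (8) the limit of 1 left 4 and 2. With 1 array left out the counts ran from 4 to 5 in TNF against CI and from 9 to 10 in Dex against CI, and stayed at 8 in TNF against Dex. For collagen-handling genes the limit of 1 left 6 of 33 in TNF against CI, 9 of 27 in Dex against CI and 11 of 27 in TNF against Dex, and with no limit there were 43 in Dex against CI and 50 in TNF against Dex. With 1 array left out these counts ran from 27 to 33, 26 to 28 and 24 to 28. No named gene with a call changed direction.

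The replicate numbers do not mark a shared culture in the labels, so they were not taken as pairs. Deviations from the model means correlated between -0.09 and 0.33 for same-numbered arrays and between -0.38 and 0.28 for the others. With 2 or 3 arrays a model, the deviations within a model are bound to each other, so these values cannot decide whether arrays were paired. With the replicate number as a block, 5, 10 and 8 collagens and 31, 26 and 27 handling genes were called in TNF against CI, Dex against CI and TNF against Dex. With the mean of all probe sets Ddr1 (0.40) and Tgfb1 (0.49) were not called in TNF against CI, and with an offset of 32 Mmp13 (-0.41) was not called in Dex against CI. For the 22 collagens below the median gene, low signal limits how well the size of a difference is known.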

Other observations

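Collagen-like stretches also occur in proteins outside the family, such as adiponectin and the scavenger receptors. Of 34 listed genes of this kind 32 had a named probe set. In TNF against CI 2 rose and 1 fell (median 0.11), in Dex against CI 2 rose and none fell (median -0.01), and in TNF against Dex 2 were higher and 1 lower in TNF (median 0.07). With 3, 2 and 3 of 32 genes called, beside 8.22%, 9% and 7.3% of all genes, the list was close to the background, and the genes below are given as single values. The collectin Colec12 rose by 1.32 ± 0.10 in TNF and by 1.16 ± 0.10 in Dex against CI. The ferritin receptor Scara5 rose by 1.28 ± 0.09 in Dex and was lower in TNF than in Dex by 0.97 (-0.97 ± 0.08). C1qtnf12, which encodes an adipokine related to adiponectin, fell by 0.70 ± 0.09 in TNF. Emilin1, an elastic fibre protein, rose by 0.54 ± 0.12 in TNF against CI and was 0.63 ± 0.11 above Dex, the former not called without CI replicate 2 (0.499) or TNF replicate 2 (0.49). C1qtnf6 was 0.54 ± 0.08 higher in TNF than in Dex, and not called without Dex replicate 2 (0.48).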
